A study of Homo sapiens with 4 samples.

Results

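Genes encoding the chromatin remodelling machines of human embryonic stem cells are described here, 51 genes of the 60671 in the deposited table. They were chosen by symbol, with earlier results of these data known. They comprise 25 subunits of the BAF (SWI/SNF) complexes, 5 genes of the ISWI class, 4 CHD helicases outside NuRD, 13 subunits of NuRD, and 4 genes of the INO80 and EP400 class. All 51 symbols were found, each in a single row. RNA was measured in 4 libraries of H9, an established human embryonic stem cell line grown in mTeSR medium without treatment, 2 of them labelled control and 2 labelled CFIm25 KO+ 3Flag-CFIm25 overexpression and called KO+OE here. CFIm25, encoded by NUDT21, is a subunit of the factor that binds new mRNA upstream of its cleavage site, and per the study's methods the re-expressing line was made from 1 edited clone by a lentivirus that carries tagged CFIm25 in a vector named for the EF1 promoter. The edit is named a knockout in the sample titles and a knockdown in the series title. The paper describes its edited clones as knockdowns with a small N-terminal deletion, in which a faint CFIm25 band remained. The labels do not say whether the replicates were separate cultures, so the p-values below measure the spread between libraries, which may be technical. The edited cells without re-expression were not analysed here.

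Chromatin remodellers are ATP-driven machines that slide, evict or exchange nucleosomes. BAF complexes open chromatin at enhancers and promoters, ISWI complexes space nucleosomes, NuRD joins a CHD helicase to histone deacetylases, and INO80 and EP400 complexes act on nucleosomes that carry the variant H2A.Z. Many subunits exist as paralogs that occupy the same place in a complex, and the choice of paralog is a known mark of cell type: embryonic stem cells are known for a BAF complex built on SMARCA4, while ACTL6B, DPF1 and DPF3 replace their relatives in neurons.

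The facts of the libraries that bear on all these genes are given first. The values were TPM, a transcript abundance scaled to a common total, which corrects for transcript length, and each library summed to between 986853 and 987078 TPM, of which the 51 genes took 0.206% to 0.209%. The mitochondrial genome took 21.0% and 21.1% in the controls and 21.6% and 22.1% with KO+OE, and with its genes left out of the scaling the median log2 fold change of the tested members went from -0.0037 to 0.011. Read depth is unknown, because TPM holds no counts. NUDT21 was at 156 ± 5.99 TPM in the control libraries and 159 ± 3.88 TPM in the KO+OE libraries (SD, n = 2 each), so the RNA of the edited gene does not tell the groups apart. Of 10 pluripotency markers 9 reached 1 TPM on average, and the list summed to 3351 to 3381 TPM in every library, led by POU5F1 at 2164 to 2212 TPM. The neural list of 7 markers summed to 2.48 to 3.58 TPM, the mesoderm and heart list to 9.41 to 10.5 TPM and the endoderm list to 5.38 to 9.01 TPM. NEUROD1 and SOX17 were listed at 0 in all 4 libraries, while GATA6, at 4.35 to 8.39 TPM, made up most of the endoderm sum. MAP2 led the neural list at 1.34 to 2.55 TPM and TNNT2 the mesoderm and heart list at 5.48 to 7.86 TPM. The fibroblast list was high, at 1308 to 1432 TPM, with 4 of its 7 genes at 1 TPM or more on average. Most of that sum was THY1, which embryonic stem cells also express, while COL1A1 was at 53.9 to 55.6 TPM, COL1A2 at 12.99 to 14.47 TPM and PDGFRB at 11.6 to 15.0 TPM. LUM was listed at 0 in every library and DCN and COL3A1 reached no more than 0.08 TPM.

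The levels of the 51 genes spanned from a mean of 0.065 TPM for DPF3 to 363 TPM for RUVBL2. The 5 genes at 100 TPM or more were RUVBL2, SMARCB1, MBD3, SMARCA4 and MTA1. A further 24 genes lay between 10 and 100 TPM and 17 between 1 and 10 TPM. The remaining 5, SMARCA2, ARID2, PBRM1, BAZ1A and DPF3, averaged under 1 TPM and went untested between the groups, which left 46 genes. The summed RNA of the listed genes differed between the classes. The 25 BAF genes summed to 865 to 876 TPM per library and the 13 NuRD genes to 696 to 715 TPM. The 4 INO80 and EP400 genes summed to 440 to 452 TPM. The 4 CHD genes outside NuRD summed to 16.2 to 21.6 TPM and the 5 ISWI genes to 7.44 to 8.64 TPM. These sums depend on how many and which subunits were listed, and are not levels of the complexes.

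**Figure D1:**
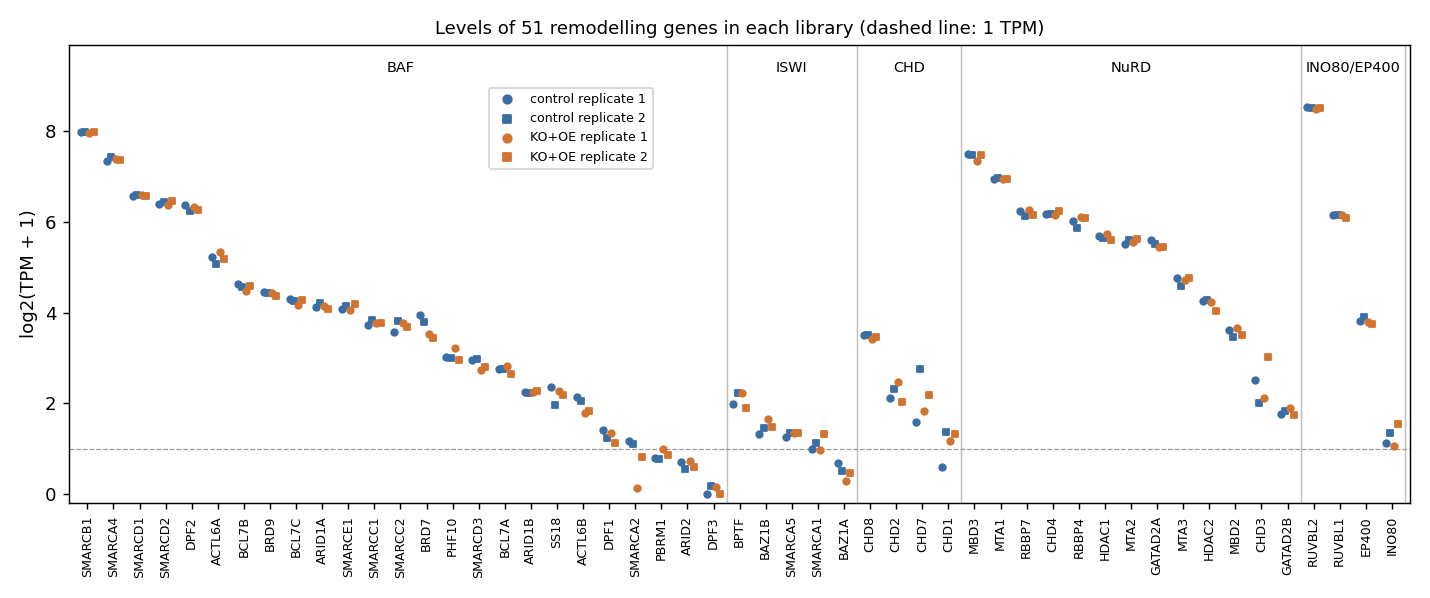
Level of each of the 51 genes on the scale log2(TPM + 1) in each of the 4 libraries, ordered by mean level within each class of complex; circles are replicate 1 and squares replicate 2, and the dashed line marks 1 TPM. RUVBL2, SMARCB1 and MBD3 stand highest, the ISWI genes among the 51 all lie low, and the 4 libraries nearly coincide for most genes.

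The comparison of the groups asked whether re-expression of CFIm25 in the edited clone left the remodelling genes at control levels. The labels do not say whether the controls carried a mock vector, so the edit, the clone, the lentivirus and the re-expression cannot be told apart in it. None of the 46 tested genes passed an adjusted p of 0.05 in limma, a linear model fitted here on log2(TPM + 1) across all 12319 genes at or above 1 TPM on average, where 0.00812% of genes passed. At an unadjusted p under 0.05 limma gave 1 of the 46 genes (2.17%), the PBAF subunit BRD7, against 5.33% of all genes tested. The log2 fold changes ran from -0.38 for BRD7 to 0.31 for CHD3, with 22 above 0 and 24 below, and their median was -0.0037, beside -0.012 over all genes tested. The median absolute log2 fold change was 0.05 for the 46 genes and 0.082 for all genes. The values of the groups did not overlap for 8 genes that were lower in KO+OE (17.4%, against 19.6% of all genes tested) and for 2 genes that were higher (4.35%, against 14.5%). Taken in either direction these were 10 genes or 21.7%, and 34.1% of all genes were so separated.

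The intervals show how large a difference could have been missed. The 95% confidence interval lay inside the 2-fold limits for 43 of the 46 genes (93.5%, against 92.6% of all genes tested) and inside the 1.5-fold limits for 38 (82.6%, against 71.0%). Precision followed the level: the median half-width of the interval was 0.48 on the log2 scale for the 14 genes from 1 to 5 TPM, 0.21 for the 20 genes from 5 to 50 TPM and 0.13 for the 12 genes at 50 TPM or more. The 3 genes whose interval reached beyond 2-fold were CHD1, CHD3 and CHD7, all under 5 TPM and all with unlike replicates.

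**Figure D2:**
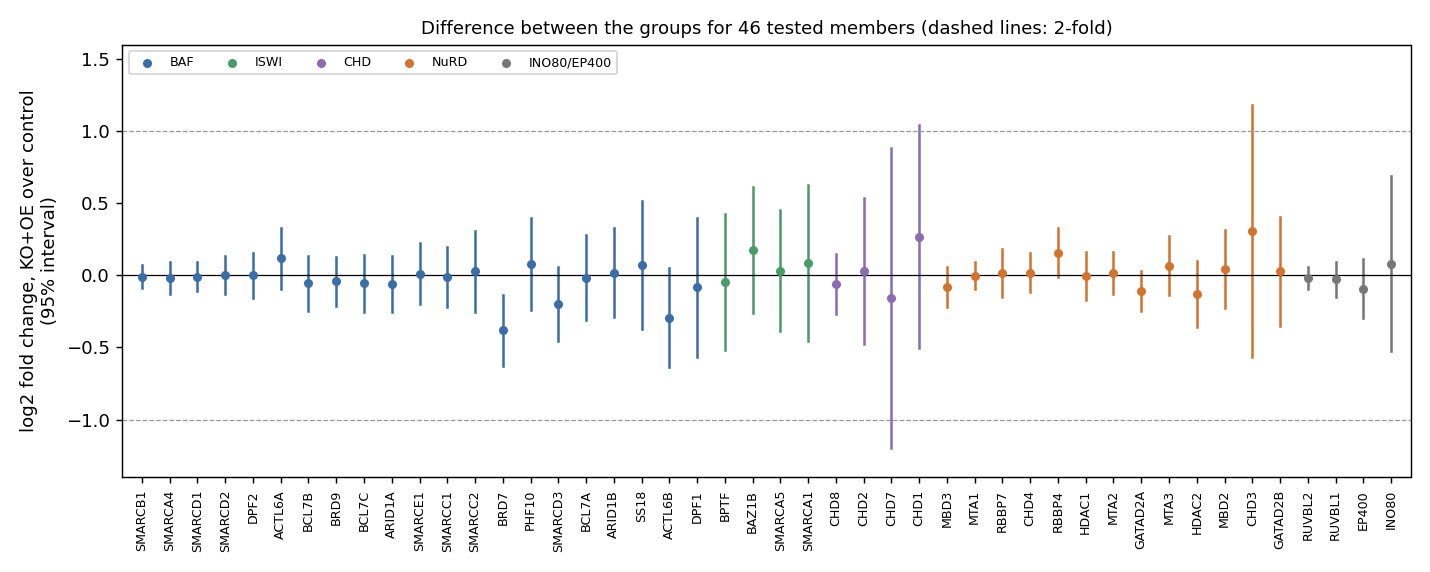
Log2 fold change of KO+OE over control (points) with its 95% confidence interval from limma (bars) for the 46 tested genes, coloured by class of complex; the solid line is no difference and the dashed lines are 2-fold. Only the interval of BRD7 excludes 0, and those of CHD1, CHD3 and CHD7 cross a dashed line.

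The catalytic subunits were examined first. SMARCA4, also called BRG1, is the ATPase of the stem cell BAF complex, and SMARCA2, also called BRM, is its alternative. SMARCA4 was at 161.52 and 171.89 TPM in the controls and at 165.15 and 163.77 TPM with KO+OE, with a log2 fold change of -0.02. SMARCA2 was at 1.26 and 1.14 TPM in the controls and at 0.10 and 0.77 TPM with KO+OE. The groups overlapped for SMARCA4, while SMARCA2 was lower in both KO+OE libraries, which themselves differed more from each other than the control libraries did. Without the filter on low values, limma gave SMARCA2 a log2 fold change of -0.66 with a 95% interval from -1.45 to 0.13 and an adjusted p = 0.873, so the difference was not detectable at this level. SMARCA4 supplied 99.2% to 99.9% of the summed TPM of the pair in every library.

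The ISWI ATPases formed a more balanced pair at a level far below that of SMARCA4. SMARCA5, or SNF2H, the ATPase of the widely used ISWI complexes, was at 1.41 and 1.56 TPM in the controls and at 1.55 and 1.53 TPM with KO+OE. SMARCA1, or SNF2L, known from neural tissue, was at 0.98 and 1.18 TPM in the controls and at 0.95 and 1.49 TPM with KO+OE. SMARCA5 took 50.7% to 62.0% of the pair, and the lowest and highest of these shares were both KO+OE libraries. In NuRD, CHD4 was at 71.53 and 70.71 TPM in the controls and at 69.40 and 74.65 TPM with KO+OE, and took 91.3% to 95.9% of the pair with CHD3.

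The coding sequences of these ATPases are shown at the same place, because paralogs that spell nearly the same motif differ in the base composition with which the measured levels also varied. Each line gives 60 bases, or 20 codons, 5′ to 3′ on the coding strand, from the first codon of helicase motif II, the site that helps to hydrolyse ATP, taken from the canonical transcript in GENCODE release 44. Capitals mark a G or C at the third position of a codon, the position freest to vary without changing the protein.
SMARCA4: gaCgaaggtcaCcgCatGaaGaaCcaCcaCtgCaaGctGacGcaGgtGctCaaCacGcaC
SMARCA2: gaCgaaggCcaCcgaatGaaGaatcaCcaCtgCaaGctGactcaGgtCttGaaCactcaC
SMARCA5: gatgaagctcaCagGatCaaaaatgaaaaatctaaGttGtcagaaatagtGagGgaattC
SMARCA1: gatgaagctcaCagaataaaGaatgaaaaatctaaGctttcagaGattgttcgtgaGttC
CHD4: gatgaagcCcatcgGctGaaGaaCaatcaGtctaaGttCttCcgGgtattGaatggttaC
CHD3: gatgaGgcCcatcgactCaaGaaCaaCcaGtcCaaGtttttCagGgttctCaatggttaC

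The windows begin at coding base 2641 in SMARCA4, 2551 in SMARCA2, 922 in SMARCA5, 931 in SMARCA1, 2617 in CHD4 and 2647 in CHD3. SMARCA4 and SMARCA2 differed at 8 of the 60 bases, 7 of them at the third position of a codon, although their levels differed 203-fold. SMARCA5 and SMARCA1 differed at 11 bases, 9 of them at the third position, and CHD4 and CHD3 at 10, of which 8 were at the third position. The third position held G or C in 18 of the 20 codons shown for SMARCA4 and in 15 for SMARCA2. It did so in 8 for SMARCA5, 6 for SMARCA1, 12 for CHD4 and 13 for CHD3. Over the whole coding sequence this share was 79.4% for SMARCA4, 56.9% for SMARCA2, 37% for SMARCA5, 38.1% for SMARCA1, 56.9% for CHD4 and 64.0% for CHD3. The gene with more RNA thus had the higher share in the pair of SMARCA4 and the lower share in those of SMARCA5 and CHD4. In the RefSeq annotation of GRCh38.p14 SMARCA4 lies on the plus strand of chromosome 19 from 10961030 to 11062273, SMARCA2 on the plus strand of chromosome 9 from 2015347 to 2193620, SMARCA5 on the plus strand of chromosome 4 from 143513702 to 143557486 and SMARCA1 on chromosome X from 129446506 to 129523490 (minus strand). CHD4 spans 6570082 to 6607379 of chromosome 12, minus strand, and CHD3 spans 7884796 to 7912755 of chromosome 17, plus strand.

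Among the core subunits of the BAF complex SMARCB1, SMARCD1 and SMARCD2 were high and the others lower. SMARCB1, the subunit that contacts the acidic patch of the nucleosome, was at 250.26 and 249.00 TPM in the controls and at 245.22 and 250.35 TPM with KO+OE. The scaffold subunits SMARCC1 and SMARCC2 were present at nearly equal levels, with SMARCC1 at 12.26 and 13.24 TPM in the controls and at 12.73 and 12.57 TPM with KO+OE, and SMARCC2 between 10.93 and 13.01 TPM. SMARCC1 therefore took 50.3% to 52.9% of that pair in every library, although exons of SMARCC2 overlap the far higher gene MYL6 on the other strand. SMARCD1 was at 94.22 to 95.93 TPM over the 4 libraries and SMARCD2 at 81.18 to 87.10 TPM, and SMARCE1, an HMG-box subunit, was at 15.65 to 17.32 TPM. Among the SMARCD paralogs SMARCD3, the one known from heart and nerve, was the low one, at 6.78 and 6.82 TPM in the controls and at 5.65 and 5.94 TPM with KO+OE. Both KO+OE libraries lay below both controls for SMARCD3, with a log2 fold change of -0.20 (95% confidence interval -0.46 to 0.06) and, by limma, an adjusted p = 0.931. The gene CHPF2 overlaps exons of SMARCD3 on the other strand. It was at 7.0 and 6.22 TPM in the controls and at 5.46 and 6.06 TPM with KO+OE, lower as well and without overlap. Beside SMARCD3, the mesoderm and heart list of 7 markers summed to 10.49 and 10.54 TPM in the controls and to 9.50 and 9.41 TPM with KO+OE, also without overlap, with 2 of its 7 genes at 1 TPM or more on average. TNNT2, the higher of these, was at 6.69 and 7.86 TPM in the controls and at 5.48 and 6.35 TPM with KO+OE. The other, TBX6, went the other way without overlap, at 2.17 and 1.61 TPM in the controls and at 2.64 and 2.21 TPM with KO+OE. The part of such cells, if any, in the value of SMARCD3 was not tested. SMARCD1 took 50.3% to 52.2% of its family, and its groups overlapped.

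The subunits that define the classes of BAF complex were compared next. ARID1A and ARID1B, the large DNA-binding subunits of canonical BAF, were at 15.88 to 17.52 TPM and 3.70 to 3.84 TPM, and ARID1A took 80.5% to 82.6% of the pair. DPF2, the PHD finger subunit of canonical BAF, was at 81.42 and 74.28 TPM in the controls and at 79.65 and 76.12 TPM with KO+OE, and took 97.9% to 98.4% of the DPF family. The neuronal relatives were low, DPF1 at 1.19 to 1.68 TPM and DPF3 at 0 and 0.14 TPM in the controls and at 0.11 and 0.01 TPM with KO+OE. The genes specific to PBAF stood apart in level from one another: PHF10 was at 6.80 to 8.35 TPM, ARID2 at 0.46 to 0.66 TPM, and PBRM1, which carries an array of bromodomains, was at 0.75 and 0.71 TPM in the controls and at 0.99 and 0.81 TPM with KO+OE. BRD7 had the highest level of the PBAF genes.

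BRD7 (ENSG00000166164), the bromodomain subunit of PBAF, spans 50315957 to 50368988 of chromosome 16, minus strand, in the same annotation. BRD7 was at 14.30 and 12.75 TPM in the controls and at 10.49 and 9.79 TPM with KO+OE. Both KO+OE libraries were below both control libraries, and the gap between the groups was wider than the gap within either. The log2 fold change was -0.38 with a standard error of 0.095 and a 95% interval from -0.63 to -0.14, and limma gave an unadjusted p = 0.0102 and an adjusted p = 0.928. BRD7 therefore did not pass the correction over all genes, and its adjusted p ran from 0.852 to 0.953 over the alternatives tried. It was no longer under an unadjusted p of 0.05 in limma when control replicate 1 or KO+OE replicate 2 was left out, with log2 fold changes of -0.30 and -0.34. BRD9, its relative in the non-canonical BAF complex, was at 20.82 and 20.41 TPM in the controls and at 20.53 and 19.53 TPM with KO+OE, a log2 fold change of -0.04. The share of BRD9 in the summed TPM of the 2 genes was 59.3% and 61.6% in control and 66.2% and 66.6% in KO+OE. The gene ADCY7, which overlaps exons of BRD7 on the other strand, was at 0.68 to 1.49 TPM with overlap between the groups.

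Accessory BAF subunits included another neuronal switch. ACTL6A, the actin-related subunit of dividing cells that BAF shares with the INO80 and EP400 complexes, was at 36.13 and 32.45 TPM in the controls and at 39.15 and 35.40 TPM with KO+OE. ACTL6B (ENSG00000077080), its neuronal counterpart, was at 3.44 and 3.16 TPM in the controls and at 2.47 and 2.55 TPM with KO+OE. The groups overlapped for ACTL6A and not for ACTL6B, whose log2 fold change was -0.29 (95% confidence interval -0.64 to 0.05) and an adjusted p = 0.931 from limma. ACTL6A took 91.3% and 91.1% of the pair in control and 94.1% and 93.3% in KO+OE. Beside ACTL6B, the neural marker list summed to 2.74 and 2.48 TPM in control and to 3.58 and 3.14 TPM in KO+OE, with 1 of its 7 genes at a mean of 1 TPM or more and NEUROD1 at 0, and its part in the value of ACTL6B was not tested. In bulk RNA a smaller number of cells with a transcript and less of it per cell cannot be told apart. SS18, a subunit shared by canonical and non-canonical BAF, was at 2.93 to 4.11 TPM. Of the BCL7 genes, which encode small accessory subunits, BCL7B was at 21.18 to 23.59 TPM, BCL7C at 16.92 to 18.83 TPM and BCL7A at 5.27 to 6.04 TPM, and BCL7B took 48.0% to 49.3% of the family.

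**Figure D3:**
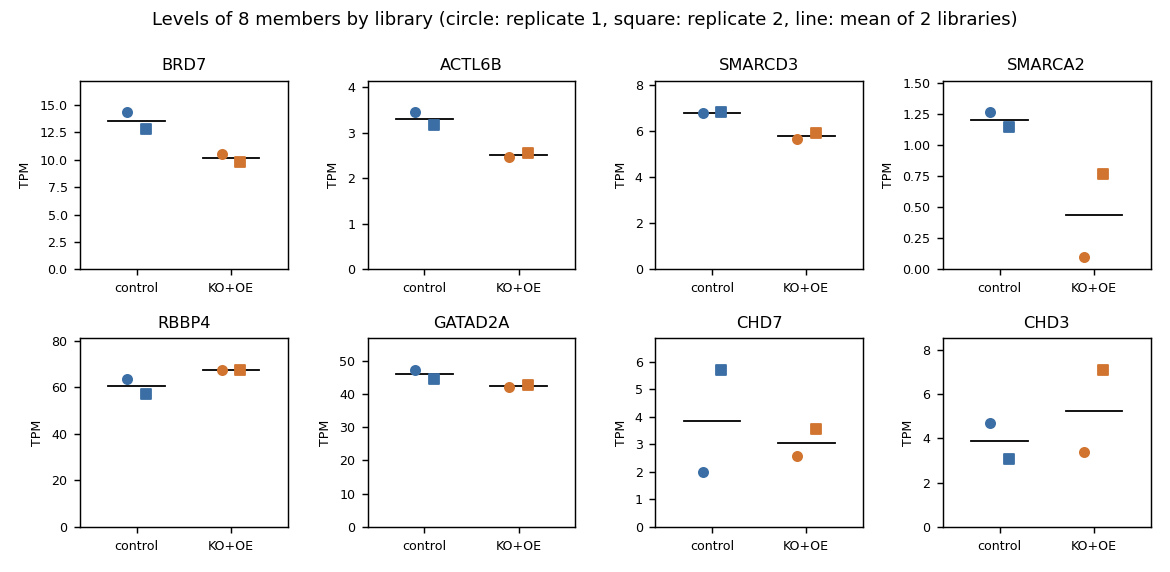
Level in TPM of 8 genes in each library, on axes that start at 0: the 5 genes with the lowest unadjusted p (BRD7, RBBP4, ACTL6B, SMARCD3 and GATAD2A), SMARCA2, and CHD7 and CHD3 with the widest intervals, a choice made after the values were seen. The first 6 show no overlap between the groups, while for CHD7 and CHD3 the 2 libraries of a group lie farther apart than the group means.

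Among the chosen genes the regulatory subunits of ISWI, BAZ1A, BAZ1B and BPTF, were also under 5 TPM. Other genes of the class, outside the chosen ones, lay on both sides of that level. POLE3 averaged 34.0 TPM, BAZ2A 15.6 TPM and CHRAC1 12.6 TPM, while CECR2 averaged 4.02 TPM, RSF1 1.47 TPM and BAZ2B 0.54 TPM. BAZ1A, the partner of SMARCA5 in ACF and CHRAC, was at 0.61 and 0.42 TPM in the controls and at 0.23 and 0.38 TPM with KO+OE. BAZ1B, the Williams syndrome transcription factor, was at 1.5 and 1.76 TPM in the controls and at 2.16 and 1.79 TPM with KO+OE. Both genes were without overlap between the groups, in opposite directions, by gaps smaller than those between the libraries of a group. The log2 fold change of BAZ1B was the largest of the 4 tested ISWI genes, 0.18 with a standard error of 0.17 and a 95% interval from -0.26 to 0.61, and limma gave an unadjusted p = 0.344 and an adjusted p = 0.956. Leaving out KO+OE replicate 1 or control replicate 1 gave 0.087 and 0.11 in turn. BAZ1A, below the filter, had a log2 fold change of -0.21 when low genes were kept. BPTF, the large subunit of NURF that reads methylated histone H3, was at 2.94 and 3.72 TPM in the controls and at 3.70 and 2.73 TPM with KO+OE. None of the 4 tested ISWI genes had an unadjusted p under 0.05 in limma.

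Among the CHD helicases outside NuRD, CHD1 and CHD7 had control libraries that differed widely. CHD1, a helicase associated with elongating polymerase and known for open chromatin in embryonic stem cells, was at 0.52 and 1.58 TPM in the controls and at 1.27 and 1.51 TPM with KO+OE. Its log2 fold change was 0.27 with a standard error of 0.30, a 95% interval from -0.50 to 1.04, an unadjusted p = 0.410 and an adjusted p = 0.960 from limma, and without control replicate 1 it was -0.11. CHD7, a helicase of enhancers, was at 2.0 and 5.71 TPM in the controls and at 2.56 and 3.55 TPM with KO+OE, so that both KO+OE values lay between the control values. The log2 fold change of CHD7 was -0.16, and it moved to 0.42 when control replicate 2 was left out and to -0.74 when control replicate 1 was. CHD8, the relative of CHD7 that binds beta-catenin, was steady by comparison, at 10.31 and 10.34 TPM in the controls and at 9.76 and 9.98 TPM with KO+OE, a log2 fold change of -0.06. CHD2 was at 3.35 and 4.0 TPM in the controls and at 4.56 and 3.07 TPM with KO+OE, and CHASERR, a long noncoding RNA listed under its older symbol LINC01578 that shares exon sequence with CHD2 on the same strand, was at 7.93 to 9.87 TPM.

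In NuRD the scaffold gene MTA1 was close between the groups. MTA1, a scaffold of the deacetylase core, was at 121.50 and 123.89 TPM in the controls and at 122.48 and 122.41 TPM with KO+OE, with a log2 fold change of -0.0029. MTA2 was at 44.84 to 47.90 TPM and MTA3 at 23.10 to 26.25 TPM, so that MTA1 took 62.3% to 63.6% of the family. The deacetylase HDAC1 was at 50.35 and 49.14 TPM in the controls and at 52.17 and 47.12 TPM with KO+OE, and HDAC2 was at 18.08 and 18.36 TPM in the controls and at 17.80 and 15.48 TPM with KO+OE. HDAC1 was the leading deacetylase in all 4 libraries, with 72.8% to 75.3% of the pair. HDAC2 was lower in KO+OE without overlap, with a log2 fold change of -0.13 (95% confidence interval -0.36 to 0.10) and, by limma, an adjusted p = 0.942, and it was -0.032 without KO+OE replicate 2. The antisense gene HDAC2-AS2 was at 34.9 to 37.9 TPM, above HDAC2 itself, and since the sources used here do not say whether counting used strand, reads of the 2 genes cannot be told apart.

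RBBP4, a histone chaperone, had the lowest unadjusted p of the NuRD genes. RBBP4 was at 63.70 and 57.03 TPM in the controls and at 67.50 and 67.24 TPM with KO+OE, without overlap. Its log2 fold change was 0.16 (95% confidence interval -0.0092 to 0.33), and limma gave an unadjusted p = 0.0595 and an adjusted p = 0.931. Without control replicate 2 the log2 fold change of RBBP4 was 0.080. Its relative RBBP7 was at 74.44 and 68.98 TPM in the controls and at 75.73 and 69.53 TPM with KO+OE, and led RBBP4 in every library with 50.8% to 54.7% of the pair. MBD3, the methyl-CpG-binding family member known to be required for lineage commitment of embryonic stem cells, was at 178.38 and 176.93 TPM in the controls and at 160.09 and 176.10 TPM with KO+OE, and MBD2 was at 10.01 to 11.65 TPM. The groups did not overlap for MBD3, but KO+OE replicate 2 lay next to the controls, and MBD3 took 93.2% to 94.6% of the pair. AC005943.2, which overlaps exons of MBD3 on the other strand, was at 7.46 TPM in KO+OE replicate 1 and at 0 in every other library. AC005943.1 overlaps them on the same strand and was at 7.80 to 14.45 TPM. The part of these rows in the value of MBD3 was not tested. GATAD2A, which bridges the deacetylase core to CHD4, was at 47.24 and 44.49 TPM in the controls and at 42.22 and 42.78 TPM with KO+OE, a log2 fold change of -0.11 (limma, adjusted p = 0.932) that was -0.065 without control replicate 1, and GATAD2B was at 2.36 to 2.75 TPM. CHD3 had the largest fold change of the class and of all 46 genes in the upward direction, at 4.69 and 3.05 TPM in the controls and at 3.37 and 7.09 TPM with KO+OE. The log2 fold change of CHD3 was 0.31 with a standard error of 0.34, a 95% interval from -0.56 to 1.18, an unadjusted p = 0.405 and an adjusted p = 0.960 from limma, and it was -0.14 without KO+OE replicate 2.

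The AAA+ helicases RUVBL1 and RUVBL2, which assemble into a ring in the INO80 and EP400 complexes, were both well expressed, and RUVBL2 had the highest mean of the 51 genes. RUVBL2 was at 367.85 and 361.91 TPM in the controls and at 356.15 and 364.75 TPM with KO+OE, and RUVBL1 was at 66.58 to 70.11 TPM. RUVBL2 took 83.6% to 84.6% of the pair, although the ring is known to hold both in equal number. The catalytic subunits were lower: EP400 was at 13.09 and 13.96 TPM in the controls and at 12.83 and 12.38 TPM with KO+OE, and INO80 at 1.17 and 1.53 TPM in the controls and at 1.09 and 1.94 TPM with KO+OE. EP400 had the largest log2 fold change of these 4 genes, -0.09 with a standard error of 0.08, a 95% interval from -0.30 to 0.11, an unadjusted p = 0.292 and an adjusted p = 0.948 from limma, and it was -0.051 without control replicate 2. The pseudogene EP400P1 was listed at 22.82 and 7.70 TPM in the controls and at 7.37 and 6.94 TPM with KO+OE, so 1 control library stood apart there and not for EP400, and near-identical copies can share reads.

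The balance of related genes was then summarised over 20 families as the share of the family's summed TPM taken by its leading gene. Not all families hold alternatives for the same place. BRD7 and BRD9 belong to different complexes, as do INO80 and EP400, and RUVBL1 and RUVBL2 share a ring. The same gene led in all 4 libraries in each of the 20 families. The leading share was above 90% in every library in 6 families, those led by SMARCA4, DPF2, GATAD2A, CHD4, MBD3 and ACTL6A, while that of EP400 over INO80 ran from 86.5% to 92.2%. The difference between the group means was under 2 percentage points in 14 families. With 2 libraries against 2, the levels of 34.1% of all genes tested did not overlap between the groups. Shares did not overlap in 6 of the 20 families, a part near that of all genes: those led by SMARCA4, BRD9, ACTL6A, BAZ1B, HDAC1 and RBBP7. The largest of these differences was that of BAZ1B over BAZ1A, 75.9% ± 6.82 in control and 86.4% ± 5.58 in KO+OE (SD, n = 2 each), followed by that of BRD9 over BRD7, 60.4% ± 1.6 and 66.4% ± 0.302. With 2 libraries against 2, the two-sided exact permutation test cannot give a p below 0.333, which these 6 families reached, and after adjustment over the 20 families the p was 1.0 for each. This exact test could not reach a threshold of 0.05 at that size, and no model of the shares was fitted. With each library left out in turn the sign of the difference changed in 11 of the 20 families. It could not change in the 6 without overlap, where both KO+OE shares lay on the same side of both control shares. The difference for BAZ1B ran from 5.70 points without control replicate 1 to 15.3 points without control replicate 2, against 10.5 points over all libraries. That for SMARCA4 was 0.25 points without KO+OE replicate 1 and that for RBBP7 was -1.44 points without KO+OE replicate 2, against 0.45 and -2.46 points.

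**Figure D4:**
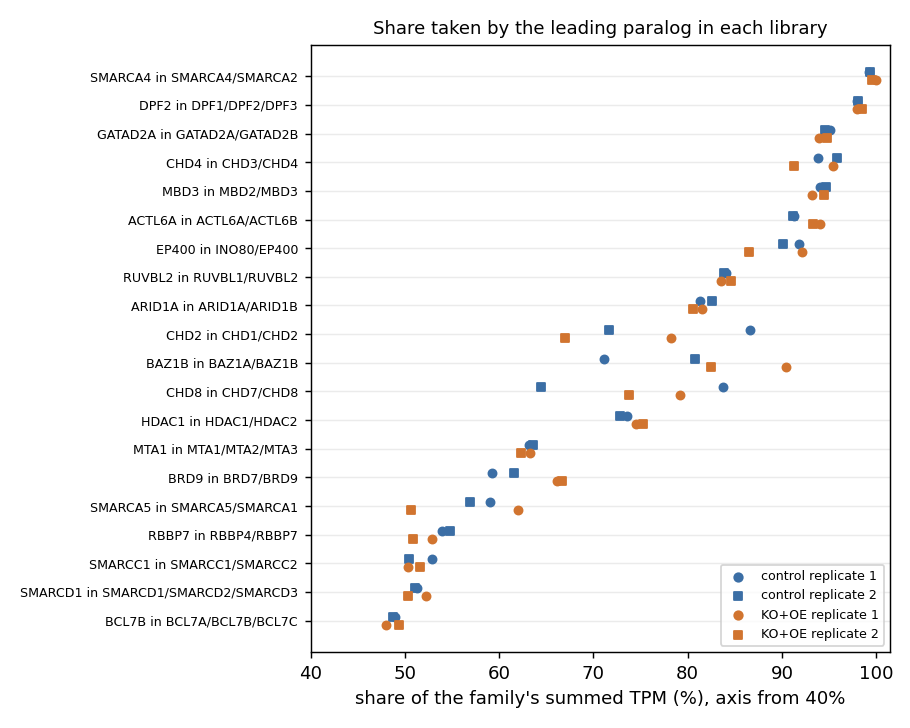
Share of the leading paralog in the summed TPM of its family (percent, axis from 40%) in each library for the 20 families, ordered by the control mean; circles are replicate 1 and squares replicate 2. SMARCA4 and DPF2 take nearly all of their families and SMARCC1 and RBBP7 little more than an equal part, and the groups are apart most visibly for BRD9 and ACTL6A.

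The levels of the genes varied with the composition and length of their transcripts in every library. Across the 51 genes, which share libraries and are not independent replicates, the Spearman correlation of TPM with the G and C content of the canonical transcript was 0.452 to 0.481, and that with its length was -0.459 to -0.410. The 3 genes under 40% G and C, HDAC2, CHD1 and SMARCA5, had a median of 1.51 TPM, and the 11 genes from 40 to 45% a median of 3.61 TPM. The 11 genes from 50 to 55% had a median of 12.1 TPM, and the 17 genes above 55% had 22.6 TPM. Over all genes tested the median level likewise went from 2.82 TPM in the first of these bins to 13.6 TPM in the last. RUVBL2, SMARCB1, SMARCA4, MTA1 and MBD3, the highest genes, lay between 59.6% and 62.8%. Of the genes averaging under 1 TPM, ARID2, BAZ1A and PBRM1 lay between 40.5% and 41.8%. SMARCA2 in the same tier was at 48.8%, and DPF3, the lowest of all, at 53.2%. Single genes departed from this order in both directions: RBBP4 reached 63.9 TPM at 41.4% and the neuronal genes ACTL6B and DPF1 lay at 2.91 and 1.45 TPM at 59.4% and 62.4%. In 13 of the 20 families the leading paralog was also the one richest in G and C, and in 10 it had the shortest transcript. In families of 2 or 3 genes such counts can arise without any relation, and they were not tested. The part of base composition and length in the order of the levels was not tested, and it concerns levels compared between genes more than the comparison of groups, in which each gene is set against itself.

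**Figure D5:**
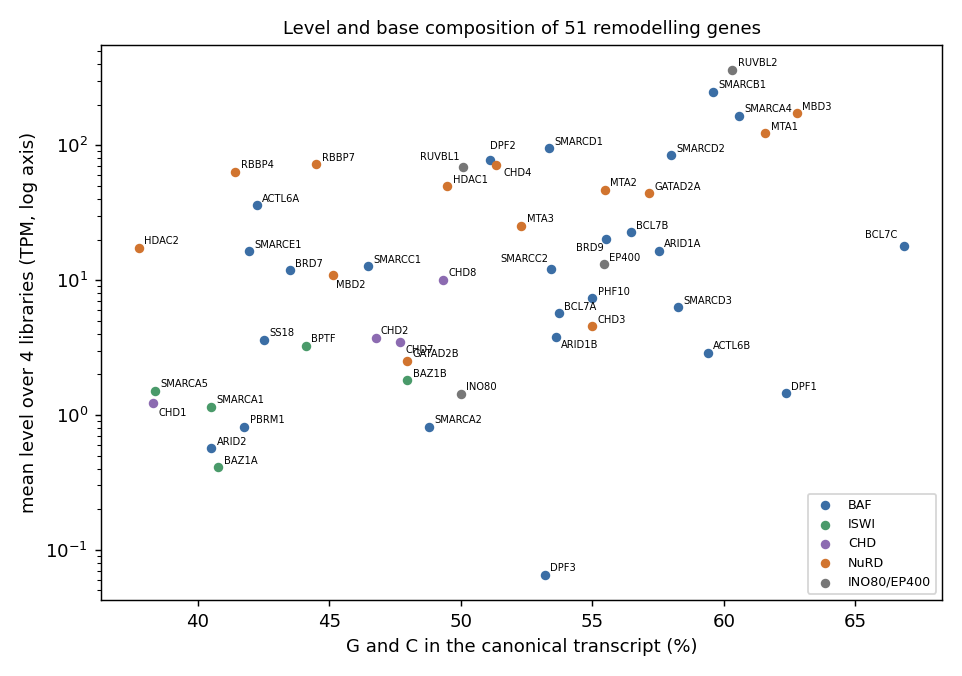
Mean level over the 4 libraries (TPM, log axis) against the percentage of G and C in the canonical transcript for the 51 genes, coloured by class of complex. Genes under 42% lie mostly below 20 TPM and the highest genes gather near 60%, with RBBP4, RBBP7 and ACTL6A high at low G and C, and ACTL6B and DPF1 low at high G and C.

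Other rows could share reads with these genes. Of 25 pseudogenes named after a member, 21 were listed at 0 in all 4 libraries and only EP400P1 had a mean of at least 1 TPM. For 13 of the 51 genes an annotated gene on the other strand with a mean of at least 1 TPM overlapped an exon, among them MYL6 at a mean of 2658 TPM for SMARCC2 and UQCC5, listed as SMIM4, at 76.07 to 100.39 TPM for PBRM1 and SEC61A1 at 96.0 to 99.4 TPM for RUVBL1. Reads of such pairs cannot be told apart without strand, so the levels of genes such as SMARCC2, SMARCD3, HDAC2, MBD3, PBRM1 and RUVBL1 are uncertain.

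A list of 50 further genes of the same complexes and their relatives was compared in the same way. All 50 were found and 40 had a mean of at least 1 TPM. None passed an adjusted p of 0.05 in limma and 2 had an unadjusted p under 0.05, 1 in each direction, which is 5.0% against the 5.33% of all genes tested. MEAF6, a subunit of the TIP60 acetyltransferase complex that holds EP400, was at 17.86 and 17.64 TPM in the controls and at 22.10 and 20.27 TPM with KO+OE, with a log2 fold change of 0.24, an unadjusted p = 0.0219 and an adjusted p = 0.928 from limma. INO80C, a subunit of INO80, was at 35.47 and 34.53 TPM in the controls and at 31.11 and 31.89 TPM with KO+OE, with a log2 fold change of -0.15, an unadjusted p = 0.0422 and an adjusted p = 0.928. The median log2 fold change of the 40 genes was -0.02, with 19 above 0 and 21 below.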

How the data were processed

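Poly(A)-selected RNA of 4 H9 libraries was sequenced on a NovaSeq. The submitters' processing notes name HISAT2, featureCounts, Subread, DESeq2 and the build hg38, with no role or version. The authors deposited 1 table of 60671 genes whose header names no unit. The deposited values were read as TPM because they hold 2 decimals and each column sums to nearly the same total. The table held 0 per-sample columns of other samples, and depth is unknown, so no count test was possible.

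Groups and replicate numbers came from the sample titles. The model used log2(TPM + 1), which understates the change of low genes. Genes averaging 1 TPM or more were compared with limma 3.58.1 (mean-dependent prior, two-sided, group as the only term) in R 4.3.3, with Benjamini-Hochberg adjustment over all 12319 genes. The step was tested on simulated data. Shares of paralogs were compared with an exact permutation test. Transcript length and base composition came from GENCODE release 44 by Ensembl identifier, found for all 51 genes, and positions from the RefSeq table of GRCh38.p14. No protein sequences were used here.

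The 51 genes, the families and the further list were chosen with earlier results of these data known. Every gene is named with values. Full statistics are given for genes at an unadjusted p under 0.05 and for the gene of largest change in each class, and some also for other genes without overlap between the groups, which were chosen after their values were seen. Other settings tried were quantile normalization, rescaling by median ratios or without mitochondrial genes, pseudocounts of 0.1 or 5, keeping all genes or only those averaging 5 TPM, a constant prior in limma, blocking on the replicate number, and each library left out in turn. Python 3.11.15, pandas 2.3.3, numpy 2.4.6, scipy 1.17.1 and matplotlib 3.10.9 were used.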

Additional observations from a re-analysis of the deposited data

How the results depend on the processing

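Depth is unknown and each group holds 2 libraries, which limits every comparison. None of the 46 genes passed an adjusted p of 0.05 under limma in any setting, and the smallest adjusted p of a single gene was 0.852. At an unadjusted p under 0.05, 2 genes (BRD7 and RBBP4) were counted after rescaling by median ratios, after quantile normalization or after rescaling without mitochondrial genes, and 3 (BRD7, SMARCD3 and ACTL6B) with limma's constant prior. The median log2 fold change of the 46 genes was 0.0094, 0.013 and 0.011 under those rescalings in turn. The further remodelling genes gave 1 at an unadjusted p after rescaling by median ratios, without mitochondrial genes, and with the replicate number as a block. Over all genes, 0 passed the adjusted threshold in limma with a pseudocount of 0.1 (670 at an unadjusted p), a pseudocount of 5 (634), no filter (1314), a filter at 5 TPM (412), quantile normalization (649) and the replicate block (673), against 1 and 656. The cause was not tested, beyond the change in genes tested that the filters make. The replicate numbers did not pair the libraries (correlation of deviations -0.0483), and the block left 1 of the 46 genes at an unadjusted p and 0 at an adjusted p. The log2 fold change changed sign, in the order median ratios, quantile normalization and no mitochondrial genes, to 0.0027, 0.0048 and 0.0038 for SMARCC1, 0.010, 0.015 and 0.011 for MTA1, and 0.0085, 0.010 and 0.0096 for HDAC1. Under the first and last it was 0.0025 and 0.0036 for SMARCB1, and 0.0051 and 0.0063 for SMARCD1.

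With each library left out in turn, which leaves a group of 1 assumed to vary like the other, 1 to 2 of the 46 genes and 1 to 2 of the further genes had an unadjusted p under 0.05, 0 to 1 of all genes passed the adjusted threshold, and the median log2 fold change of the 46 genes was -0.019 to -0.0028. BRD7 was counted without control replicate 2 (with CHD1) and without KO+OE replicate 1, but CHD7 and RBBP4 were counted in its place without control replicate 1, and MBD3 without KO+OE replicate 2. The sign of the log2 fold change depended on the library left out for 31 of the 46 genes and for NUDT21, with ranges of -0.063 to 0.026 for SMARCA4, -0.061 to 0.042 for SMARCC1, -0.089 to 0.14 for SMARCC2, -0.026 to 0.0041 for SMARCB1, -0.020 to 0.0044 for SMARCD1, -0.048 to 0.052 for SMARCD2, -0.057 to 0.081 for SMARCE1, -0.20 to 0.029 for DPF1, -0.064 to 0.067 for DPF2, -0.053 to 0.21 for PHF10, -0.12 to 0.26 for SS18, -0.10 to 0.066 for BCL7A, -0.12 to 0.0037 for BCL7B, -0.11 to 0.0037 for BCL7C, -0.091 to 0.26 for SMARCA1, -0.011 to 0.076 for SMARCA5, -0.21 to 0.12 for BPTF, -0.11 to 0.65 for CHD1, -0.20 to 0.25 for CHD2, -0.14 to 0.75 for CHD3, -0.035 to 0.069 for CHD4, -0.74 to 0.42 for CHD7, -0.017 to 0.011 for MTA1, -0.027 to 0.061 for MTA2, -0.016 to 0.15 for MTA3, -0.077 to 0.067 for HDAC1, -0.043 to 0.079 for RBBP7, -0.038 to 0.13 for MBD2, -0.050 to 0.11 for GATAD2B, -0.16 to 0.33 for INO80, -0.065 to 0.0082 for RUVBL1, -0.012 to 0.066 for NUDT21.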
